A study of Sus scrofa with 6 samples.

Results

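SNAI1, SNAI2, TWIST1, TWIST2, ZEB1, ZEB2, RUNX1, RUNX2, PRRX1 and SOX9 are transcription factors that steer mesenchymal cells, and their RNA was measured in porcine preadipocytes treated with TGF-β1. The members were the rows of the gene expression table whose gene name equals one of these 10 symbols, and the row with the highest mean was kept where a symbol repeats. By symbol, 9 of the 10 were found among 22164 genes, and 7 of these were high enough to be tested among 17708 genes. SNAI1 had no row under its symbol. Through RefSeq gene IDs, SNAI1, SNAI2 and RUNX2 were also found in 3 rows that carry only a LOC number, and these rows were added after their values were seen.

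The cells were preadipocytes from subcutaneous adipose tissue of 5-day-old Junmu white pigs. The TGF-β1 group (3 samples) was kept for 48 h with TGF-β1 (recombinant, human) at 10 ng/mL, and the negative control group, NC (3 samples), with 10 mM citric acid for the same time. Whether the TGF-β1 samples also held citric acid is not stated. The study calls the samples of a group biological replicates. The source labels carry a different number for each sample without saying whether these are separate animals, so p-values measure the spread between these samples, which may be partly technical. Values are FPKM, which scale the fragments of a gene to its length and to the size of the library, so levels can be set side by side between genes.

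Epithelial-mesenchymal transition is the process in which an epithelial cell gives up its junctions and takes on the shape and motility of a mesenchymal cell, and TGF-β is among its best known inducers. The zinc finger proteins of the SNAI and ZEB families and the basic helix-loop-helix proteins TWIST1 and TWIST2 repress epithelial genes such as CDH1, which encodes E-cadherin. Preadipocytes are mesenchymal already, and several of these factors are part of their ordinary identity. RUNX2 is the master factor of osteoblasts, SOX9 that of chondrocytes, RUNX1 is best known from blood formation, and PRRX1 is a homeobox factor of limb and connective tissue mesenchyme.

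No member passed the test between TGF-β1 and NC. TWIST2 and SNAI2, the highest of the 10 factors, were lower in all 3 TGF-β1 samples than in any NC sample, with differences in the mean of -19.0% and -19.6%. Among all tested genes, 14.3% were lower and 3.83% higher in this way, and 66.9% had a log2 fold change below 0 (median -0.10). PRRX1 was above every NC sample in all 3 TGF-β1 samples, but its size there depended on 1 sample. The other 7 factors overlapped between the groups. These separations are those of the values as deposited: scaled to the same total, SNAI2 overlapped and RUNX1 did not.

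**Figure D1:**
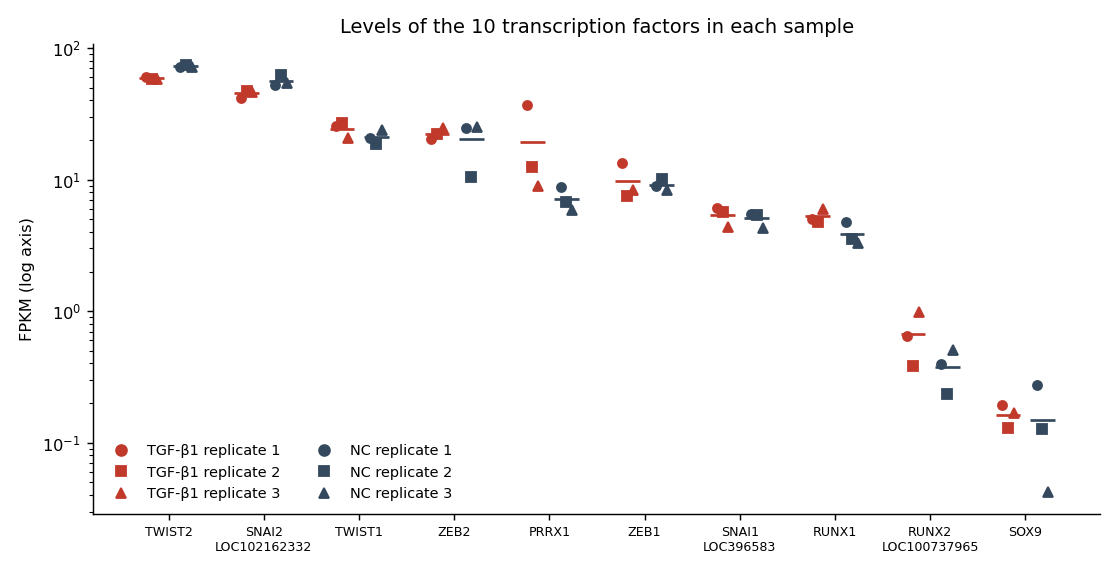
FPKM (log axis) of each of the 10 factors in the 3 TGF-β1 samples (red, left) and the 3 NC samples (dark, right), with a bar at each group mean. SNAI1, SNAI2 and RUNX2 are shown by the rows found through RefSeq gene IDs; TWIST2 and SNAI2 lay highest in both groups and SOX9 lowest, and PRRX1 of TGF-β1 replicate 1 stood at 36.8 FPKM, above the other 5 samples.

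The factors covered a wide range of levels. In the TGF-β1 samples, the mean FPKM was 58.7 for TWIST2, 45.2 for SNAI2, 24.3 for TWIST1, 22.3 for ZEB2, 19.4 for PRRX1, 9.72 for ZEB1, 5.39 for SNAI1, 5.25 for RUNX1, 0.674 for RUNX2 and 0.164 for SOX9. The ranges of neighbours in this order overlapped for TWIST1 and ZEB2, ZEB2 and PRRX1, PRRX1 and ZEB1, and SNAI1 and RUNX1. These ranges run over the samples of a group and take no account of the order of the genes within a sample. In the NC samples, the mean FPKM was 72.4 for TWIST2, 56.3 for SNAI2, 21.1 for TWIST1, 20.2 for ZEB2, 9.10 for ZEB1, 7.12 for PRRX1, 5.07 for SNAI1, 3.87 for RUNX1, 0.379 for RUNX2 and 0.148 for SOX9. Neighbours overlapped there for TWIST1 and ZEB2, ZEB1 and PRRX1, SNAI1 and RUNX1, and RUNX2 and SOX9. The order of the means thus differed between the groups only in the place of PRRX1 and ZEB1, whose ranges overlapped in both groups. Within samples, PRRX1 was above the kept ZEB1 row in every TGF-β1 sample and below it in every NC sample. The nearest values were 8.75 FPKM for PRRX1 and 8.87 FPKM for ZEB1 in NC replicate 1.

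TWIST2 and SNAI2 together made up much of the summed level of the 10 factors. Their share of the summed FPKM was 48.5%, 56.9% and 58.6% in the TGF-β1 samples and 62.7%, 71.0% and 63.8% in the NC samples. The share was lower in every TGF-β1 sample. The sum itself averaged 191 ± 16.4 FPKM in TGF-β1 samples and 196 ± 3.55 FPKM in NC samples (SD, n = 3 each), and its values overlapped. Among all 22164 genes, the mean of TWIST2 lay at percentile 96.3 and that of SNAI2 at percentile 95.1, while RUNX2 lay at percentile 36.1 and SOX9 at percentile 22.7.

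The rows that carried SNAI1, SNAI2 and RUNX2 need to be stated before their values. The row named SNAI2 (gene32134) had an FPKM of 0.0548, 0 and 0 in the TGF-β1 samples and of 0, 0.0303 and 0 in the NC samples. The row named RUNX2 (gene15169) had 0, 0 and 0.0267 FPKM in the TGF-β1 samples and 0, 0.00822 and 0 FPKM in the NC samples. Both rows were listed at 0 in 4 of 6 samples and were not tested. Rows LOC102162332 (gene8831) and LOC100737965 (gene15170) carry the RefSeq gene IDs of SNAI2 and RUNX2, and LOC396583 (gene34723) that of SNAI1. These 3 rows passed the filter and are the ones meant below by the gene names, unless the row under the symbol is named. The symbol ZEB1 stood on a pair of rows, of which gene20250 had the higher mean and was kept by the rule. Which part of each gene a row covers was not analysed here.

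**Figure D2:**
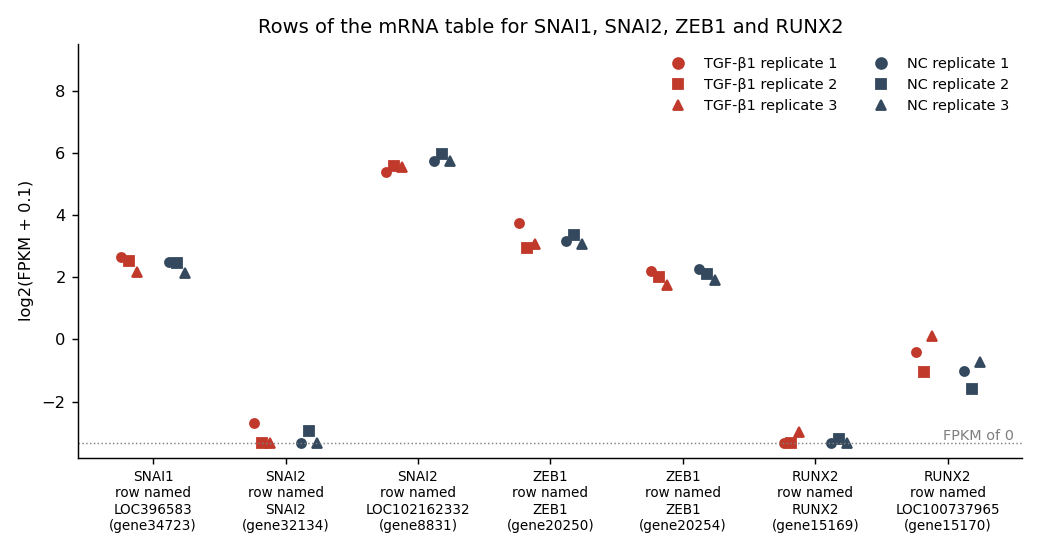
Level, as log2(FPKM + 0.1), of each row of the table for SNAI1, SNAI2, ZEB1 and RUNX2, in TGF-β1 samples (red, left) and NC samples (dark, right). The rows named SNAI2 and RUNX2 lay at or near the line for an FPKM of 0, the LOC row of SNAI2 lay between 41.7 and 62.3 FPKM, and both ZEB1 rows were well above 0.

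The differences were tested with limma on log2(FPKM + 0.1), with p-values adjusted by Benjamini-Hochberg over all 17708 genes and called below the study's threshold of 0.1. Of the 7 members tested by symbol, 0 were called, and with the RefSeq rows 0 of 10, against 0.0960% of all genes (17 genes, 9 higher and 8 lower in TGF-β1). Median-ratio scaling turned that split to 8 higher and 4 lower, and a trended and robust fit to 15 higher and 31 lower. The adjusted p of the members ran between 0.401 and 0.947. At an unadjusted p below 0.05, 1 of the 7 members by symbol was past the threshold (TWIST2), and 2 of 10 with the RefSeq rows (TWIST2 and SNAI2), against 9.98% of all genes. Which members these were depended on the scaling, on leaving out samples and on a replicate block. The unadjusted p of SNAI2 was 0.0917 after quantile normalization, 0.0937 after median-ratio scaling and 0.163 after scaling to the same total. For TWIST2 it was 0.0352, 0.0441 and 0.0761 under the same 3 scalings, and for RUNX1 0.0290, 0.0270 and 0.0182. In the values as deposited, TGF-β1 values lay above all NC values for 1 of 10 factors (PRRX1), against 3.83% of all genes. They lay below all NC values for 2 of 10 (TWIST2 and SNAI2), against 14.3% of all genes. With counts this small, neither share was read as a result about the members.

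The log2 fold change of TGF-β1 over NC was above 0 for 8 of the 10 factors and below 0 for TWIST2 and SNAI2, with a median of 0.20. For all tested genes it was below 0 in 66.9%, with a median of -0.10. The median of all genes lay at -0.0086 after quantile normalization, at -0.0054 after median-ratio scaling and at 0.023 after scaling to the same total. Each member kept its direction relative to 0 under these 3 scalings.

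**Figure D3:**
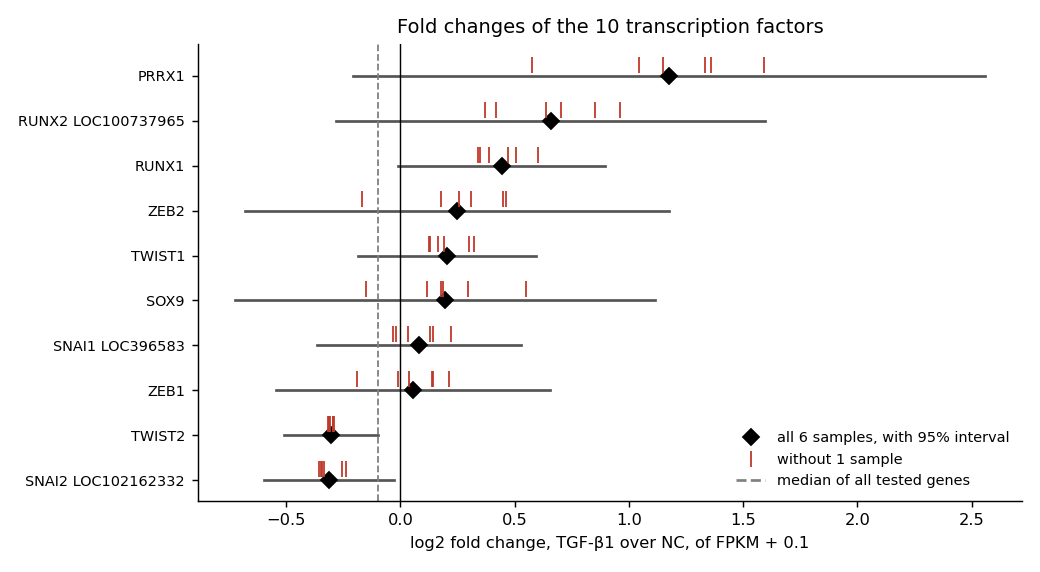
Log2 fold change of TGF-β1 over NC for the 10 factors (diamonds) with the 95% interval from limma (lines), the values when 1 sample was left out (red ticks), and the median of all tested genes at -0.10 (dashed). For the values as deposited, the intervals of TWIST2 and SNAI2 lay below 0 and those of the other 8 factors included 0, which changed for SNAI2, TWIST2 and RUNX1 with scaling, and the ticks of ZEB1, ZEB2, SOX9 and SNAI1 fell on both sides of 0.

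SNAI1, or Snail, is the factor of this group most often described as an early target of TGF-β in epithelial cells, and it binds E-boxes of epithelial promoters to silence them. Its FPKM was 6.12, 5.69 and 4.36 in the TGF-β1 samples and 5.52, 5.41 and 4.29 in the NC samples. The groups covered nearly the same range, and replicate 3 was the lowest of each. Its log2 fold change was 0.080 (SE 0.18, 95% interval -0.37 to 0.53, limma adjusted p = 0.891).

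SNAI2, or Slug, its close relative, was present at a far higher level, and is known to be expressed in many mesenchymal cells. Its FPKM was 41.7, 47.4 and 46.6 in the TGF-β1 samples and 52.7, 62.3 and 53.8 in the NC samples. In the values as deposited, the groups did not overlap, and the gap between them was the distance from 47.4 to 52.7 FPKM. Scaled to the same total, the groups overlapped. Means were 45.2 ± 3.11 FPKM in TGF-β1 and 56.3 ± 5.26 FPKM in NC (SD, n = 3 each). The log2 fold change was -0.31 (SE 0.11, 95% interval -0.60 to -0.027), with an unadjusted p of 0.0372 and an adjusted p of 0.477 in limma, so the difference did not hold up after adjustment. Relative to the median of all genes it was -0.21, and after scaling to the same total -0.18.

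SNAI1 accounted for 12.8%, 10.7% and 8.55% of the summed FPKM of the pair in the TGF-β1 samples and for 9.48%, 7.99% and 7.38% in the NC samples. These shares overlapped between the groups. The log2 ratio of SNAI1 over SNAI2 within a sample differed by 0.39 (two-sided exact permutation p = 0.2, adjusted p = 0.4 over 4 paralogue ratios), where 0.1 is the smallest p that 3 samples against 3 allow. The difference was 0.24 without TGF-β1 replicate 1 and 0.56 without TGF-β1 replicate 3.

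TWIST2 and TWIST1 share a nearly identical basic helix-loop-helix domain, bind DNA as dimers with E proteins, and are known in mice and humans as factors of craniofacial, dermal and connective tissue mesenchyme. How fragments that fit both genes were assigned was not stated. TWIST2 was measured at 60.0, 58.1 and 58.0 FPKM in the TGF-β1 samples and at 71.5, 73.8 and 72.1 FPKM in the NC samples. Its replicates lay close together, with a coefficient of variation of 1.92% in TGF-β1 and 1.67% in NC, where the 4619 genes with a mean of 10 to 100 FPKM had a median of 7.23% in TGF-β1 and 8.56% in NC. The groups were separate, at 58.7 ± 1.13 FPKM in TGF-β1 and 72.4 ± 1.21 FPKM in NC (SD, n = 3 each). The log2 fold change was -0.30 (SE 0.08, 95% interval -0.51 to -0.10). The unadjusted p was 0.0118, the lowest among the members, and ranked 518 among all genes, and the adjusted p was 0.401 in limma. Relative to the median of all genes the difference was -0.20, and after scaling to the same total -0.17.

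TWIST1 showed no such separation. It was measured at 25.5, 26.9 and 20.6 FPKM in the TGF-β1 samples and at 20.6, 18.8 and 23.9 FPKM in the NC samples, so TGF-β1 replicate 3 lay inside the NC range. Its log2 fold change was 0.20 (SE 0.16, limma adjusted p = 0.678). It was 0.32 without TGF-β1 replicate 3, 0.13 without TGF-β1 replicate 2, 0.12 without NC replicate 2 and 0.33 after scaling to the same total.

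The balance of the TWIST pair separated the groups. TWIST1 made up 29.8%, 31.6% and 26.2% of the summed FPKM of the pair in the TGF-β1 samples, against 22.3%, 20.3% and 24.9% in the NC samples. Every TGF-β1 share was above every NC share, and the nearest values were 26.2% and 24.9%. The mean log2 ratio of TWIST1 over TWIST2 was -1.28 ± 0.20 in TGF-β1 and -1.78 ± 0.19 in NC (SD, n = 3 each), a difference of 0.51. The two-sided exact permutation p was 0.1, the smallest this design allows, and the adjusted p over the 4 ratios was 0.4, so the difference did not pass 0.05. A ratio within a sample does not depend on how the samples are scaled, apart from the pseudocount. The summed FPKM of both genes was 83.0 ± 3.87 in TGF-β1 and 93.5 ± 2.15 in NC (SD, n = 3 each).

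**Figure D4:**
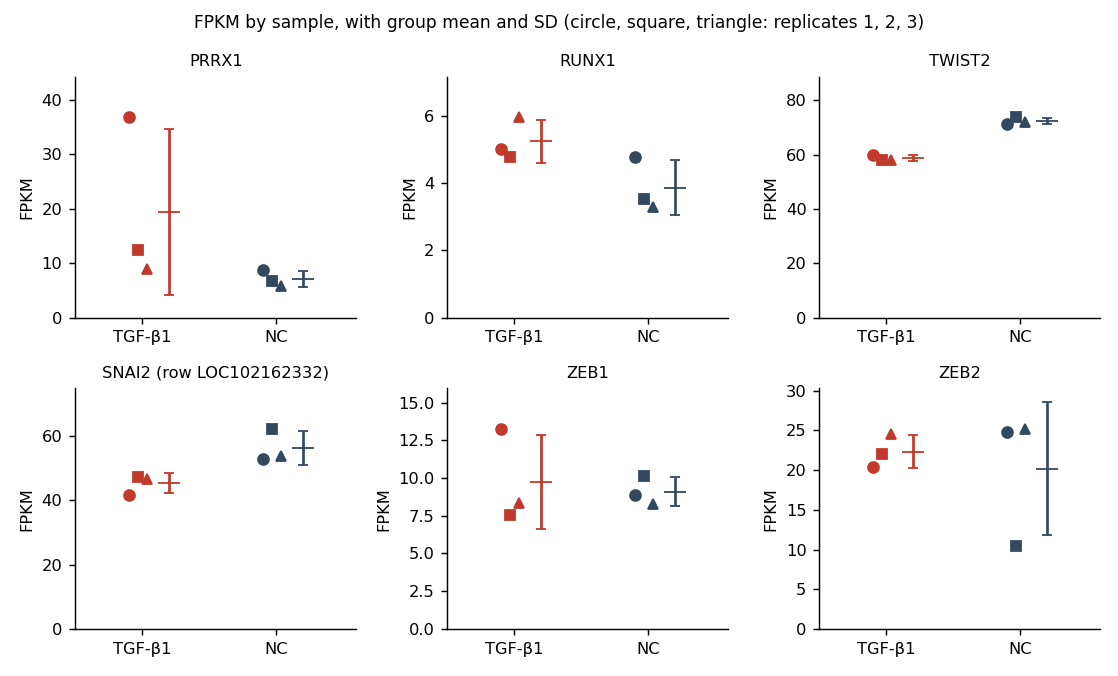
FPKM of PRRX1, RUNX1, TWIST2, SNAI2, ZEB1 and ZEB2 by sample, TGF-β1 (red) left of NC (dark), with the group mean and SD beside the points; all axes start at 0. TWIST2 and SNAI2 were lower and PRRX1 higher in every TGF-β1 sample than in any NC sample, and PRRX1 and ZEB1 had their highest value in TGF-β1 replicate 1, while the lowest value of ZEB2 was that of NC replicate 2.

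ZEB1 and ZEB2 are large zinc finger and homeodomain proteins that repress epithelial genes and are held down by the miR-200 family in epithelial cells. ZEB1 was measured at 13.3, 7.55 and 8.33 FPKM in the TGF-β1 samples and at 8.87, 10.16 and 8.26 FPKM in the NC samples. Replicate 1 of TGF-β1 was the highest and replicates 2 and 3 were within or below the NC range. This row had a log2 fold change of 0.055 (SE 0.24, limma adjusted p = 0.947). The other ZEB1 row, gene20254, had 4.52, 3.94 and 3.28 FPKM in the TGF-β1 samples and 4.75, 4.15 and 3.65 FPKM in the NC samples. Its groups overlapped as well, with a log2 fold change of -0.10 (SE 0.17, limma adjusted p = 0.853), and it did not have the high value of TGF-β1 replicate 1.

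ZEB2 was measured at 20.4, 22.04 and 24.5 FPKM in the TGF-β1 samples and at 24.8, 10.5 and 25.2 FPKM in the NC samples. NC replicate 2 was the lowest of the 6 samples, and the other NC samples were above all TGF-β1 samples. ZEB2 had a log2 fold change of 0.25 (SE 0.37, limma adjusted p = 0.835), and without NC replicate 2 it was -0.17. The direction of ZEB2 thus rested on that sample. The share of ZEB1 in the summed FPKM of the pair was 39.4%, 25.5% and 25.3% in the TGF-β1 samples and 26.4%, 49.2% and 24.7% in the NC samples. The log2 ratio of ZEB1 over ZEB2 differed by -0.19 (two-sided exact permutation p = 0.7, adjusted p = 0.7 over the 4 ratios), and without NC replicate 2 by 0.30.

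RUNX1 is a Runt domain factor known to be active in mesenchymal progenitors as well as in blood. Its FPKM was 5.01, 4.77 and 5.96 in the TGF-β1 samples and 4.79, 3.52 and 3.29 in the NC samples. The groups overlapped by a narrow margin, since TGF-β1 replicate 2 lay just below NC replicate 1. Scaled to the same total, they did not overlap. Means were 5.25 ± 0.634 FPKM in TGF-β1 and 3.87 ± 0.811 FPKM in NC (SD, n = 3 each), and the log2 fold change was 0.44 (SE 0.18, 95% interval -0.011 to 0.90). The unadjusted p was 0.0541 and the adjusted p was 0.510 in limma. After scaling to the same total, the log2 fold change was 0.57 (SE 0.17, limma adjusted p = 0.496).

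RUNX2 was low in these cells. The LOC row had 0.652, 0.381 and 0.990 FPKM in the TGF-β1 samples and 0.395, 0.233 and 0.509 FPKM in the NC samples. The groups overlapped, and in each group replicate 2 was the lowest and replicate 3 the highest. RUNX2 had a log2 fold change of 0.66 (SE 0.37, limma adjusted p = 0.602). It was 0.27 with a pseudocount of 1, 0.37 without TGF-β1 replicate 3 and 0.42 without NC replicate 2. RUNX1 held 88.5%, 92.6% and 85.8% of the summed FPKM of RUNX1 and RUNX2 in the TGF-β1 samples and 92.4%, 93.8% and 86.6% in the NC samples. The log2 ratio of RUNX1 over RUNX2 differed by -0.21 (two-sided exact permutation p = 0.8). With the RUNX2 row under the symbol the difference was 0.37 (exact permutation p = 0.3, adjusted p = 0.4), a value set by the pseudocount, since that row was at or near 0.

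PRRX1 is a marker and regulator of mesenchymal progenitors, adipose ones among them, and is known as an inducer of epithelial-mesenchymal transition. Its FPKM was 36.8, 12.4 and 8.91 in the TGF-β1 samples and 8.75, 6.76 and 5.84 in the NC samples. All TGF-β1 values were above all NC values, but the lowest of them, 8.91, was close to the highest NC value, 8.75. Means were 19.4 ± 15.2 FPKM in TGF-β1 and 7.12 ± 1.49 FPKM in NC (SD, n = 3 each). The log2 fold change was 1.17 (SE 0.55, 95% interval -0.21 to 2.56), with an unadjusted p of 0.0819 and an adjusted p of 0.545 in limma.

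The value of PRRX1 in TGF-β1 replicate 1 was 2.97 times the next TGF-β1 value. Of 6665 genes with a mean of 5 to 50 FPKM, 7 (0.105%), PRRX1 included, had a ratio at least that large in this sample. Without TGF-β1 replicate 1, the log2 fold change of PRRX1 was 0.57 (SE 0.25, limma adjusted p = 0.597). Markers of macrophages and leukocytes, 8 of 9 of which were found and tested, summed to 19.7, 66.8 and 105 FPKM in the TGF-β1 samples and to 39.7, 116 and 152 FPKM in the NC samples. Within each group this sum was lowest in replicate 1, where PRRX1 was highest. Of these 8 markers, 0 passed the test, and their part in the PRRX1 values was not tested. Some preadipocyte and fibroblast markers were also lowest in replicate 1 of each group, and others were not. PDGFRA had 70.4, 140 and 149 FPKM in the TGF-β1 samples and 67.3, 135 and 189 FPKM in the NC samples. COL1A1 had 494, 341 and 370 FPKM in the TGF-β1 samples and 255, 250 and 271 FPKM in the NC samples. In bulk RNA, more cells of a type and more RNA of a gene per cell cannot be told apart.

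PRRX2, the paralogue of PRRX1, was far more abundant, with 235, 233 and 215 FPKM in the TGF-β1 samples and 270, 250 and 229 FPKM in the NC samples. Its log2 fold change was -0.13 (SE 0.10, limma adjusted p = 0.693). PRRX1 therefore held only 13.5%, 5.05% and 3.98% of the summed FPKM of the PRRX pair in the TGF-β1 samples, against 3.14%, 2.64% and 2.49% in the NC samples. The shares did not overlap, as for PRRX1 itself. The summed FPKM of the pair was 247 ± 24.1 in TGF-β1 and 257 ± 21.9 in NC (SD, n = 3 each).

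SOX9, which drives cartilage genes in chondrocytes, had the lowest level of the 10 factors. Its FPKM was 0.193, 0.129 and 0.170 in the TGF-β1 samples and 0.275, 0.126 and 0.0419 in the NC samples. The NC samples spanned the whole TGF-β1 range. SOX9 had a log2 fold change of 0.20 (SE 0.37, limma adjusted p = 0.865), and at these levels the pseudocount of 0.1 makes up much of the value.

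Genes that act with these factors were then described by lists, of which none but the epithelial markers had a member that passed limma's test, against 0.0960% of all genes. Counts below 0 stand beside 66.9% of all tested genes below 0, with a median of -0.10 that lay near 0 after scaling. The lists were recomputed under no scaling. Of all tested genes, 3.83% had every TGF-β1 value above all NC values, and 14.3% had every TGF-β1 value below them. Among relatives of the factors, 8 of 15 symbols were found and 6 tested, with 2 above and 4 below 0 and a median log2 fold change of -0.13. SHOX2, a homeobox gene of limb mesenchyme, had 12.1 ± 1.07 FPKM in TGF-β1 and 13.3 ± 1.97 FPKM in NC, and MSC (musculin) had 3.28 ± 1.00 FPKM in TGF-β1 and 2.44 ± 0.441 FPKM in NC (SD, n = 3 each). Among other factors of the transition, 11 of 12 were found and 9 tested, with 4 above and 5 below 0 and a median of -0.025. HIF1A, the hypoxia factor, was the highest of them at 67.6 ± 5.87 FPKM in TGF-β1 and 63.7 ± 6.74 FPKM in NC (SD, n = 3 each). SOX4 was at 1.58, 8.72 and 8.44 FPKM in the TGF-β1 samples and at 8.51, 8.75 and 8.72 FPKM in the NC samples, with TGF-β1 replicate 1 far below the other 5.

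A further list held dimer partners of the factors and corepressors through which SNAI and ZEB proteins close chromatin. Of 17 symbols 14 were found and 13 tested, with 3 above and 10 below 0 and a median log2 fold change of -0.11, near the -0.10 of all genes. The histone deacetylase gene HDAC2 had 36.5 ± 1.45 FPKM in TGF-β1 and 39.6 ± 2.52 FPKM in NC, and the demethylase gene KDM1A had 26.9 ± 1.83 FPKM in TGF-β1 and 28.1 ± 1.69 FPKM in NC (SD, n = 3 each). The ID proteins sequester the E proteins that TWIST proteins need. All 4 ID genes were tested, with 1 above and 3 below 0 and a median of -0.092. ID1 was the highest, at 172, 166 and 148 FPKM in the TGF-β1 samples and 200, 190 and 183 FPKM in the NC samples, so that its groups did not overlap (log2 fold change -0.24, SE 0.10, limma adjusted p = 0.522). ID3 stood at 3.92, 2.98 and 178 FPKM in the TGF-β1 samples and at 3.34, 3.24 and 2.31 FPKM in the NC samples, high in 1 library only.

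SNAI1 protein is short-lived, and its RNA level says little of the enzymes that mark it for breakdown or shield it. Of 12 genes for such regulators, 8 were found and 7 tested, with 0 above and 7 below 0 and a median log2 fold change of -0.13. The median of all tested genes was -0.10. The kinase gene CSNK1A1 had 119 ± 4.12 FPKM in TGF-β1 and 127 ± 9.44 FPKM in NC, and the phosphatase gene CTDSP2 had 30.6 ± 11.9 FPKM in TGF-β1 and 44.9 ± 17.1 FPKM in NC (SD, n = 3 each). The CTDSP2 values overlapped widely.

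**Figure D5:**
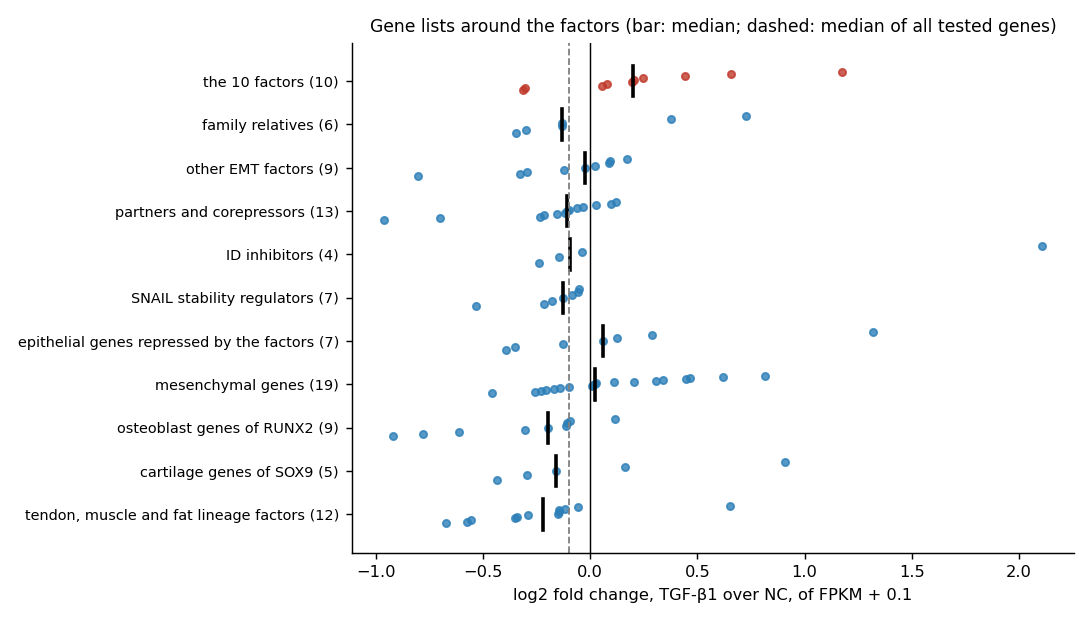
Log2 fold change of TGF-β1 over NC for the 10 factors (red) and for the tested genes of 10 lists around them (blue, 1 point per gene, number of genes in brackets), with each list's median (bar) and the median of all tested genes at -0.10 (dashed). No gene drawn passed the adjusted threshold; the medians of the factors (0.20), the repressed epithelial genes (0.060) and the mesenchymal genes (0.023) lay above 0.

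The epithelial genes that SNAI, ZEB and TWIST proteins are known to repress were near 0 in both groups. Of 22 symbols 14 were found and 7 tested, and only CLDN1, a tight junction gene, had a mean of at least 1 FPKM, at 27.5 ± 4.36 in TGF-β1 and 25.01 ± 1.39 in NC (SD, n = 3 each). Of the 7 tested, 4 were above and 3 below 0, with a median log2 fold change of 0.060. CDH1, described here after its values were seen, was listed at 0.0554, 0 and 0.118 FPKM in the TGF-β1 samples and at 0 in all NC samples. EPCAM, also described after its values were seen, had 0.102, 0.173 and 0.375 FPKM in the TGF-β1 samples. It had 0.0384, 0 and 0.0226 FPKM in the NC samples, without overlap (log2 fold change 1.32, SE 0.34, limma adjusted p = 0.393). In the wider list of epithelial markers, all 5 tested genes were above 0 and 2 were called higher, both keratins. KRT5 was at 2.29, 1.99 and 1.95 FPKM in the TGF-β1 samples and listed at 0 in all NC samples (limma adjusted p = 0.00029). KRT8 was at 0.270, 0.353 and 0.221 FPKM in the TGF-β1 samples and at 0.0118, 0 and 0.0152 FPKM in the NC samples (limma adjusted p = 0.0730). Both keratins and EPCAM passed the filter on low values only through the TGF-β1 samples. The calls of the keratins and the difference of EPCAM are therefore not independent of that filter. Summed over the 9 markers found, the list stood at 5.23, 4.73 and 4.23 FPKM in the TGF-β1 samples and at 0.282, 0.465 and 0.121 FPKM in the NC samples, and its part in the members' values was not tested.

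Mesenchymal genes, the usual gain of the transition, were abundant in both groups. All 20 were found and 19 tested, with 12 above and 7 below 0 and a median log2 fold change of 0.023. VIM, the intermediate filament vimentin, had 4105 ± 538 FPKM in TGF-β1 and 4913 ± 733 FPKM in NC (SD, n = 3 each). TNC, the matrix glycoprotein tenascin C, was at 136, 109 and 98.7 FPKM in the TGF-β1 samples and at 66.8, 64.6 and 62.5 FPKM in the NC samples, without overlap (log2 fold change 0.82, SE 0.14, limma adjusted p = 0.310). The genes known to respond to TGF-β, a check of the treatment, had 15 of 18 tested genes above 0 and a median of 0.13, and 0 passed the test. Among them the contractile gene ACTA2 had 4526 ± 517 FPKM in TGF-β1 and 4267 ± 1219 FPKM in NC, and LMCD1, a LIM domain cofactor gene, was lower at 28.3 ± 2.87 FPKM in TGF-β1 and 54.6 ± 5.01 FPKM in NC (SD, n = 3 each; log2 fold change -0.94, limma adjusted p = 0.152). SKIL, a feedback inhibitor of Smad signalling, was at 9.55, 0.331 and 9.44 FPKM in the TGF-β1 samples and at 0.0224, 9.51 and 8.59 FPKM in the NC samples, so that 1 sample of each group was near 0.

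Genes of bone and cartilage, listed as downstream of or beside RUNX2 and SOX9 and not all directed by them, were mostly as low as the factors themselves. Of the osteoblast genes, 13 of 16 were found and 9 tested, with 1 above and 8 below 0 and a median log2 fold change of -0.20, and 3 had a mean of at least 1 FPKM. These were the stress factor gene ATF4, at 315 ± 27.6 FPKM in TGF-β1 and 341 ± 44.7 FPKM in NC, the osteopontin gene SPP1, at 69.3, 109 and 207 FPKM in the TGF-β1 samples and 125, 198 and 320 FPKM in the NC samples, and the parathyroid hormone receptor gene PTH1R, at 2.86 ± 0.685 FPKM in TGF-β1 and 3.16 ± 1.05 FPKM in NC (SD, n = 3 each). Of the cartilage genes, 11 of 17 were found and 5 tested, with 2 above and 3 below 0 and a median of -0.16. COMP, a matrix protein of cartilage and tendon, had 8.005 ± 1.48 FPKM in TGF-β1 and 10.1 ± 3.29 FPKM in NC, and the matrilin gene MATN4 had 7.14 ± 1.06 FPKM in TGF-β1 and 9.82 ± 2.50 FPKM in NC (SD, n = 3 each).

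Lineage factors of fat, muscle and tendon were set beside the members. Of 22 symbols 16 were found and 12 tested, with 1 above and 11 below 0 and a median log2 fold change of -0.22. PPARG, the master factor of adipocytes, had 3.37, 3.36 and 2.98 FPKM in the TGF-β1 samples and 5.64, 5.04 and 4.96 FPKM in the NC samples, without overlap. Its log2 fold change was -0.67 (SE 0.11, limma adjusted p = 0.225), which did not pass the threshold. CEBPA, its partner in adipogenesis, had 14.5 ± 1.95 FPKM in TGF-β1 and 21.9 ± 5.00 FPKM in NC (SD, n = 3 each; log2 fold change -0.57, SE 0.22, limma adjusted p = 0.480). CEBPD, an early adipogenic factor, had 229 ± 41.0 FPKM in TGF-β1 and 258 ± 72.5 FPKM in NC. CEBPB was near 0 in 1 sample of each group, at 33.6, 35.7 and 0.0871 FPKM in the TGF-β1 samples and 15.6, 0.0479 and 24.9 FPKM in the NC samples. TGFBR1, the type I receptor for TGF-β, had 4.26 ± 0.954 FPKM in TGF-β1 and 5.43 ± 0.508 FPKM in NC (SD, n = 3 each; limma adjusted p = 0.566).

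The cell type labels were checked against markers. Of 15 symbols of preadipocyte and fibroblast markers 13 were found, all with a mean of at least 1 FPKM, with 8 above and 5 below 0 and 0 called. The symbols not found were DLK1 and PREF1, which name the same gene, so this preadipocyte marker could not be checked. All TGF-β1 values lay above all NC values for 3 of the 13, against 3.83% of all genes. They lay below all NC values for 1, against 14.3% of all genes. COL1A2 had 2708 ± 186 FPKM in TGF-β1 and 2045 ± 135 FPKM in NC, and COL3A1 had 1010 ± 30.7 FPKM in TGF-β1 and 889 ± 14.2 FPKM in NC (SD, n = 3 each), both without overlap. CD34, a surface marker of adipose stromal progenitors, was lower in every TGF-β1 sample than in any NC sample, at 1.58 ± 0.290 FPKM in TGF-β1 and 2.60 ± 0.723 FPKM in NC (SD, n = 3 each; log2 fold change -0.67, limma adjusted p = 0.483). LUM, the matrix proteoglycan lumican, had 20.9 ± 5.05 FPKM in TGF-β1 and 13.3 ± 5.46 FPKM in NC (SD, n = 3 each; log2 fold change 0.69, limma adjusted p = 0.580), with overlap. Endothelial markers summed to between 15.5 and 16.8 FPKM in TGF-β1 and between 16.3 and 20.5 FPKM in NC. Of the muscle markers, DES (desmin), which smooth muscle and other contractile cells also make, had 495 ± 78.7 FPKM in TGF-β1 and 350 ± 78.1 FPKM in NC (SD, n = 3 each). Glial markers summed to between 6.08 and 7.40 FPKM in TGF-β1 and between 6.48 and 7.69 FPKM in NC.

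The tables hold no read counts, so the depth is known only in relation to other samples. From the steps of the lowest values, the depth relative to NC replicate 1 was 0.740 to 0.842 in the TGF-β1 samples and 0.778 to 1 in the NC samples. The FPKM of all genes summed to between 392976 and 404489 in TGF-β1 and between 418531 and 448468 in NC. A value listed at 0 may also be an estimate that failed, and CEBPB, SKIL and ID3 differed widely between replicates of a group.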

How the data were processed

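RNA of 3 TGF-β1 and 3 NC samples was sequenced after removal of ribosomal RNA. The authors mapped the cleaned reads to the Sscrofa10.2 assembly and obtained the deposited FPKM of each gene with StringTie 1.3.1, as the study's methods and the submitters' processing notes say. The aligner and the use of strand are not given in the sources used here, so reads of a gene and of an overlapping antisense gene cannot be told apart. The lncRNA tables were not used here.

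Log2(FPKM + 0.1) was tested with limma (version 3.58.1, R version 4.3.3, default lmFit and eBayes) over genes with FPKM above 0.1 in at least 3 of 6 samples, with Benjamini-Hochberg adjustment and a threshold of 0.1. Fold changes are on this scale, which understates those of low genes. Ratios of paralogues were set against each other with a two-sided exact permutation test. The fit was tested on simulated data. Relative depth was taken from values below 0.5 FPKM. Plots were made in Python 3.11.15 (matplotlib 3.10.9).

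The members and the lists (231 symbols) were chosen with earlier results of these data known. Named were all members, PPARG, CEBPA and TGFBR1, and of each list the genes that passed, the 2 with the highest mean and, among those with a mean of at least 1 FPKM, the 2 with the largest change. Not every gene under this rule is described. Symbols were matched to LOC numbers through a RefSeq table of another assembly (Sscrofa11.1), used for names only. Promoter motifs were planned and not analysed here.

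The counts of called genes and members and the members' fold changes were recomputed with other pseudocounts (1 and 0.01), unfiltered or at a mean FPKM of 1 or more, with quantile, median-ratio and same-total scaling, a trended robust eBayes, a threshold of 0.05, the replicate number as a block, the sum of the rows of a symbol, and leaving out each sample. SOX9 and RUNX2 had no value at a mean FPKM of 1 or more. Paralogue ratios were recomputed with the pseudocounts, the block and each sample left out, and the genes of the lists under no alternative. The rows found by RefSeq gene ID were added after seeing the data.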

Additional observations from a re-analysis of the deposited data

How the results depend on the processing

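The number of members called by limma was 0 under every alternative run, also with the RefSeq rows. Over the alternatives, the log2 fold change of TWIST2 lay between -0.32 and -0.17 (limma adjusted p 0.161 to 0.791), that of SNAI2 between -0.36 and -0.18 (0.313 to 0.822), that of PRRX1 between 0.57 and 1.59 (0.360 to 0.833) and that of RUNX1 between 0.34 and 0.60 (0.396 to 0.832). The number of all genes called, 17, was 9 at an adjusted p of 0.05, 49 with a pseudocount of 0.01, 11 with no filter, 5 with a mean FPKM of at least 1, 31 with quantile normalization and 46 with a trended and robust fit. Leaving out 1 sample gave 15 to 41 genes, with 41, 36 and 30 without TGF-β1 replicates 1, 2 and 3. Leaving out 1 sample gave log2 fold changes of -0.17 to 0.46 for ZEB2, -0.19 to 0.21 for ZEB1, -0.15 to 0.55 for SOX9 and -0.035 to 0.22 for SNAI1. The difference between TGF-β1 and NC in the log2 ratio of ZEB1 over ZEB2 was then -0.50 to 0.30. The sign turned without NC replicate 2 for ZEB2 and for the difference in the ZEB ratio. It turned without NC replicate 3 for SOX9, ZEB1 and SNAI1, and for the last pair also without TGF-β1 replicate 1. The difference between TGF-β1 and NC in the log2 ratio of RUNX1 over RUNX2 was -0.21 with the RefSeq row of RUNX2, against 0.37 with the row under the symbol. The cause of these shifts was not tested.

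With the replicate number as a block (replicate block), 3 genes were called and no member. The unadjusted p in limma was then 0.00626 for RUNX2, 0.0299 for TWIST2, 0.0352 for SNAI2 and 0.0377 for PRRX1. Deviations of same-numbered samples correlated across genes at 0.251, 0.00393 and 0.196. Since 1 of these was near 0, and not every sample correlated best with its own number, the numbers were not taken as pairs. With 3 samples a group, permutations cannot pass 0.05. Without read counts, no counting error could be given for the low values of RUNX2 and SOX9.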
